A study of Mus musculus with 11 samples.

Results

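Glycolysis and the response to low oxygen were followed in mammary fibroblasts through a list of 38 genes that covers glucose and lactate transporters, the enzymes of glycolysis, the hypoxia-inducible factors and their targets. A gene was taken from probe sets that the array annotation pairs with its symbol alone, and the brightest of these was kept. In all, 35 of the 38 genes were measured in this way, out of 19938 genes on the array. No probe set carried Gpi1 or Eno1 as its symbol, and Gapdh was named only on 25 probe sets that carry other symbols too.

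Fibroblasts were sorted from 4 kinds of mammary tissue and hybridised directly, without culture, to 11 Affymetrix Mouse Gene 1.0 ST arrays. Normal glands came from FVB/n females of 8 weeks (2 arrays, D2 and D5). The other 3 stages came from MMTV-PyMT females, in which the MMTV promoter drives polyoma middle T in the mammary epithelium. These were hyperplasia at 4 weeks (3 arrays, D6, D7 and D12), carcinoma at 9 weeks (3 arrays, D3, D4 and D10) and advanced carcinoma, which the labels call Late carcinoma, at 12 weeks (3 arrays, D8, D9 and D11). The methods give the MMTV-PyMT mice as FVB/n too, so all 11 arrays share that strain. The normal FVB/n mice carry no such transgene, so genotype, age and stage cannot be told apart in comparisons with them. Age and stage cannot be told apart in any comparison. Each array holds the pooled cells of 1 cohort of mice. The sort kept CD140a+ (PDGFR alpha) cells without F4/80. The labels add that the cells were negative for EpCAM, whereas the methods name EpCAM only for the sort used in validation experiments. Carcinoma and advanced carcinoma together are called cancer-associated fibroblasts (CAFs, 6 arrays) and were compared with normal glands and hyperplasia together (5 arrays).

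Glycolysis splits glucose to pyruvate in the cytosol. Its preparatory enzymes spend ATP on the way to triose phosphates, its pay-off enzymes regain it, and lactate dehydrogenase turns pyruvate into lactate, which leaves the cell through monocarboxylate transporters. When oxygen is scarce, the prolyl hydroxylases stop marking the alpha subunits of the hypoxia-inducible factors (HIF) for destruction. The stable alpha subunit pairs with ARNT, binds short DNA motifs near its targets and raises transcription of many glycolytic genes. HIF alpha subunits are controlled mainly at the level of protein, which arrays do not measure. In tumours, both cancer cells and fibroblasts are known to run glycolysis at a high rate.

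Facts of the whole series bear on all values given below. The array of normal D2 mirrors that of advanced carcinoma D11: for each probe set the mean of the remaining 9 arrays lies midway between both, so that the sum of D2 and D11 misses 2 times that mean by at most 0.000144 (log2 scale). In the rest of the 55 possible pairs the corresponding largest gap was at least 3.55. These arrays are therefore not independent of the rest, and each comparison was also fitted with a term for both. Fibroblast markers were abundant, with a mean log2 level of 10.63 to 11.10 in 10 of the arrays and 9.20 in carcinoma D4. All 12 fibroblast markers had a lower mean in CAFs than in the others, with a median difference of -0.51 and a lowest of -1.04, and none passed the test. Pdgfra, the gene of the sorting antigen, differed by -0.66 (adjusted p = 0.110). Markers of other cell types were higher in CAFs: 14 of 15 luminal epithelial genes, among them Epcam by 2.16 (adjusted p = 0.00149), and 12 of 12 macrophage genes, among them Adgre1 by 2.32 (adjusted p = 0.00719). The luminal mean ran from 6.12 to 7.69 in normal glands and hyperplasia and from 8.51 to 9.65 in CAFs, and the macrophage mean from 4.71 to 6.12 and from 6.25 to 8.18. Of 13 cell cycle genes, 12 were higher in CAFs, with list means of 5.69 to 6.44 and 6.52 to 7.42. Of the other lists, 3 of 6 basal epithelial genes rose, 4 of 10 T and NK cell genes, 3 of 5 B cell genes, 6 of 9 adipocyte genes, 4 of 10 skeletal muscle genes and 1 of 10 endothelial genes fell, and neither of 2 erythroid genes passed. With the term for D2 and D11, 2 T and NK cell genes, 1 B cell gene and 2 skeletal muscle genes still passed, as did 11 macrophage and 11 cell cycle genes, and the counts of the other marker lists stayed as given.

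HIF binds the letters ACGTG or GCGTG, the core of the hypoxia response element. These letters were searched on both strands in the 250 bases before the start of each gene's transcripts (RefSeq, GRCm38.p6), where CACGTG counts once on each strand. Windows were found for 30 of the 35 measured genes; Slc2a3, Slc2a4, Bnip3l, Ndrg1 and Epas1 were not matched. Either motif was present for 28 of the 30 genes (93.3%), against 41.5% of all 27025 genes with a window. The exceptions were Tpi1 and Eno2. By window, the shares were 79.1% of 43 and 38.6% of 32851. A match is a description of letters and does not show that HIF binds there. The list was drawn up to hold HIF targets, so its share beside that of all genes is not a test. The stretches below belong to some of the genes that passed the test in CAFs, and to Bnip3, a HIF target with 5 matches that did not. Of these, Slc16a3 passed only narrowly, and others that passed, such as Aldoa and Pdk1, are not shown. They are written 5′ to 3′ on the strand of the gene, and capitals mark the motifs, which read CACGT or CACGC where they lie on the other strand.
Slc2a1, chr4:119108659-119108738, plus strand: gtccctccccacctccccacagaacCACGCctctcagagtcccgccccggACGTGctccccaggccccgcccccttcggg
Pfkl, chr10:78009877-78009931, minus strand: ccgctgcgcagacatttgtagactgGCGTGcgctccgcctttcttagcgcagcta
Aldoc, chr11:78322998-78323052, plus strand: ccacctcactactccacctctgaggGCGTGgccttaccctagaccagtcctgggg
Pgk1, chrX:106186925-106186998, plus strand: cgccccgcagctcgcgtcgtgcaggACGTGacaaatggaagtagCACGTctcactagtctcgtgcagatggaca
Pkm, chr9:59657127-59657181, plus strand: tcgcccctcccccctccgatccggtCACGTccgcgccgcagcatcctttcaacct
Ldha, chr7:46845634-46845799, plus strand: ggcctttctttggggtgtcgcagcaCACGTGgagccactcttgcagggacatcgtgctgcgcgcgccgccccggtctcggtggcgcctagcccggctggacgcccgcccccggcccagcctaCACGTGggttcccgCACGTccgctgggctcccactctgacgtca
Egln3, chr12:54204074-54204124, minus strand: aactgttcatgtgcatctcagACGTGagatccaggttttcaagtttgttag
Slc16a3, chr11:120949015-120949066, plus strand: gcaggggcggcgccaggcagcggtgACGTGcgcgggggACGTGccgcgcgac
Slc16a1, chr3:104638439-104638559, plus strand: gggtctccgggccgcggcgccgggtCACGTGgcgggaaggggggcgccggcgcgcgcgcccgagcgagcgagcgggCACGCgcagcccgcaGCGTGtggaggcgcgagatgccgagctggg
Bnip3, chr7:138909512-138909648, minus strand: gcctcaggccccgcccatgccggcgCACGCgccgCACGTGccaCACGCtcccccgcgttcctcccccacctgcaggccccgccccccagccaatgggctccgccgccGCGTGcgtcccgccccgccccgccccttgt
The Ldha and Bnip3 stretches each hold 5 matches, that of Slc16a1 holds 4, those of Slc2a1, Pgk1 and Slc16a3 hold 2 and the rest hold 1.

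Against normal glands and hyperplasia, CAFs had higher levels of 13 of the 35 genes and lower levels of 2 at an adjusted p under 0.05 (37.1% and 5.71% of the list, limma with Benjamini-Hochberg adjustment over all genes). Over all genes tested, 12% were higher and 12.8% lower. The median change of the list was 0.06 on the log2 scale, beside -0.04 over all genes, so the rise of the 13 stood beside 20 genes that did not pass. Those that rose included the glucose carrier Slc2a1, the lactate exporter Slc16a3 and enzymes of both phases of glycolysis. The rise was 6.81-fold for Aldoc, 4.89-fold for Egln3, 3.62-fold for Pfkl and 2.55-fold for Slc2a1, and between 1.32-fold and 1.81-fold for the other 9. In 11 genes every CAF array lay above every other array, and in 1 gene every CAF array lay below (background 7.77% and 7.14% of all genes). In bulk samples, a shift in the mix of cells and a change of RNA within each cell cannot be told apart.

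**Figure D1:**
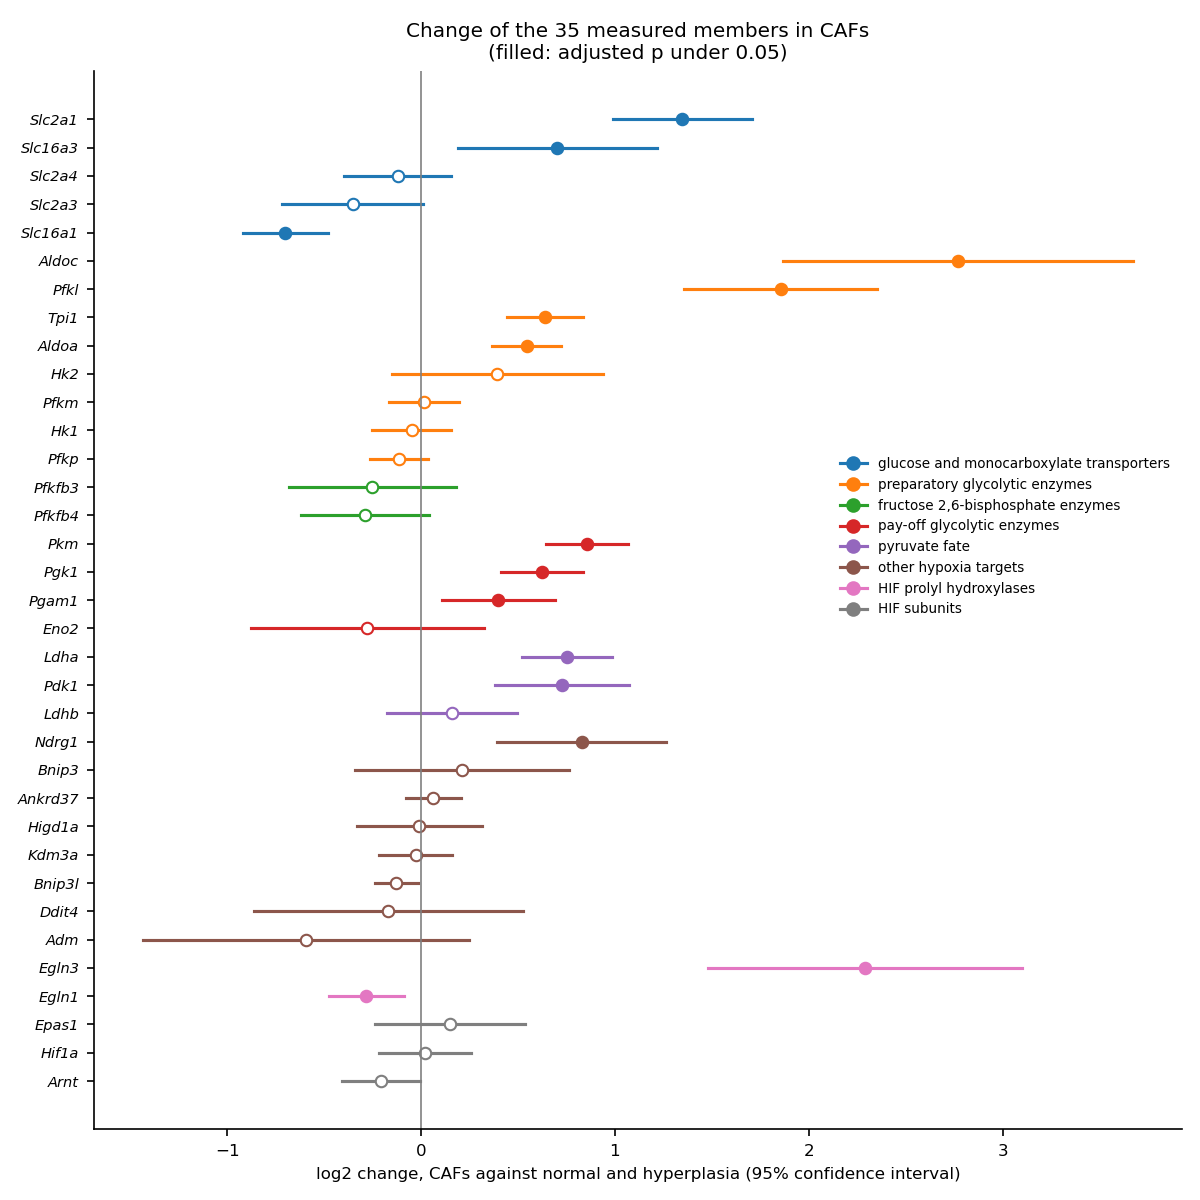
Change of each of the 35 measured genes in CAFs (6 arrays) against normal glands and hyperplasia (5 arrays) on the log2 scale, with its 95% confidence interval, coloured by role and filled where the adjusted p was under 0.05. Of the filled points 13 lie to the right of zero and 2, Slc16a1 and Egln1, to the left, and Aldoc lies farthest right at 2.77.

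Among the transporters, Slc2a1 and Slc16a3 rose in CAFs and Slc16a1 fell. Slc2a1 encodes GLUT1, the widespread glucose carrier and a HIF target whose stretch with ACGTG is printed above. Its log2 level was 8.25 and 8.00 in normal glands, 8.19, 7.95 and 8.33 in hyperplasia, 9.08, 10.07 and 9.21 in carcinoma and 9.35, 9.74 and 9.51 in advanced carcinoma. All CAF arrays lay above all others, and carcinoma D4 was the highest. The CAF mean was higher by 1.35 (SE 0.16, adjusted p = 0.0004). Slc16a1 and Slc16a3 encode MCT1 and MCT4, which carry lactate across the plasma membrane, MCT4 being known mainly for export from glycolytic cells. Slc16a1 read 8.01 and 8.04 in normal glands, 8.35, 8.01 and 7.78 in hyperplasia, 7.20, 7.23 and 7.59 in carcinoma and 7.30, 7.40 and 7.30 in advanced carcinoma. Every CAF array was thus below every other array, with a change of -0.70 (SE 0.10, adjusted p = 0.000869). Slc16a3 read 5.38 and 5.05 in normal glands, 5.15, 5.08 and 5.06 in hyperplasia, 5.07, 5.80 and 6.74 in carcinoma and 5.65, 6.14 and 5.68 in advanced carcinoma. Here carcinoma D3 lay among the normal and hyperplasia arrays and D10 stood highest. The change was 0.70 (SE 0.23, adjusted p = 0.0479, and 0.0674 with the term for D2 and D11). Changes of the other glucose carriers did not pass: Slc2a3, the neuronal GLUT3, differed by -0.35 (95% interval -0.72 to 0.01) and Slc2a4, the insulin-responsive GLUT4, by -0.12 (-0.40 to 0.16).

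Of 8 measured preparatory enzymes, 4 rose and none fell, with a median change of 0.47. The largest rise of the whole list was that of Aldoc, which encodes aldolase C, the brain form of the enzyme that splits fructose 1,6-bisphosphate. Aldoc read 7.16 and 6.39 in normal glands, 4.87, 5.74 and 6.93 in hyperplasia, 8.78, 9.40 and 8.39 in carcinoma and 9.48, 9.56 and 8.30 in advanced carcinoma. The groups did not overlap, although the 5 normal and hyperplasia arrays spread over more than 2 log2 units, and the change was 2.77 (SE 0.41, adjusted p = 0.00107). In those 5 arrays, Aldoc ranked them D2, D12, D5, D7 and D6 from high to low, and the luminal and macrophage means gave the same order. The part of these cell types in the level of Aldoc was not tested. Aldoa, the form of aldolase found in most tissues, lay between 9.92 and 10.19 in normal glands and hyperplasia and between 10.38 and 10.81 in CAFs. It rose by 0.54 (SE 0.08, adjusted p = 0.00111).

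Phosphofructokinase commits sugar to glycolysis, and of its 3 measured forms the liver form, Pfkl, passed. Pfkl read 6.36 and 5.55 in normal glands, 6.34, 5.90 and 6.60 in hyperplasia, 7.66, 8.44 and 7.41 in carcinoma and 8.22, 8.36 and 7.97 in advanced carcinoma. The lowest CAF array was above the highest other array, and the change was 1.86 (SE 0.23, adjusted p = 0.000416). The muscle form Pfkm changed by 0.01 (95% interval -0.17 to 0.19) and the platelet form Pfkp by -0.11 (-0.26 to 0.04). The interval of Pfkl, 1.36 to 2.35, does not meet those of the other forms. The difference between the forms was not tested. Tpi1, triose phosphate isomerase, read 7.84 to 8.04 in normal glands and hyperplasia and 8.25 to 8.78 in CAFs, a rise of 0.64 (SE 0.09, adjusted p = 0.000783). It is one of the genes without either motif in its window.

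Hexokinase traps glucose in the cell, and its result turned on the probe set. For Hk1, the widespread form, the brightest probe set changed by -0.05 (95% interval -0.25 to 0.16, adjusted p = 0.735), but this probe set carries no RefSeq mRNA accession. A dimmer probe set of Hk1 that carries one read 7.55 and 7.63 in normal glands, 7.32, 7.57 and 7.58 in hyperplasia, 7.94, 8.25 and 7.92 in carcinoma and 8.06, 8.14 and 8.10 in advanced carcinoma. On that probe set every CAF array was above every other, and the change was 0.54 (SE 0.08, adjusted p = 0.00116 when all probe sets were fitted). Hk2, the insulin-regulated form and a HIF target, changed by 0.39 (95% interval -0.15 to 0.94, adjusted p = 0.265). Its highest normal array, D5 at 5.82, lay above all CAF arrays but advanced carcinoma D9 at 5.96. The bifunctional enzymes that make fructose 2,6-bisphosphate, an activator of phosphofructokinase, did not pass either, with -0.25 for Pfkfb3 (adjusted p = 0.376) and -0.29 for Pfkfb4 (adjusted p = 0.180).

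**Figure D2:**
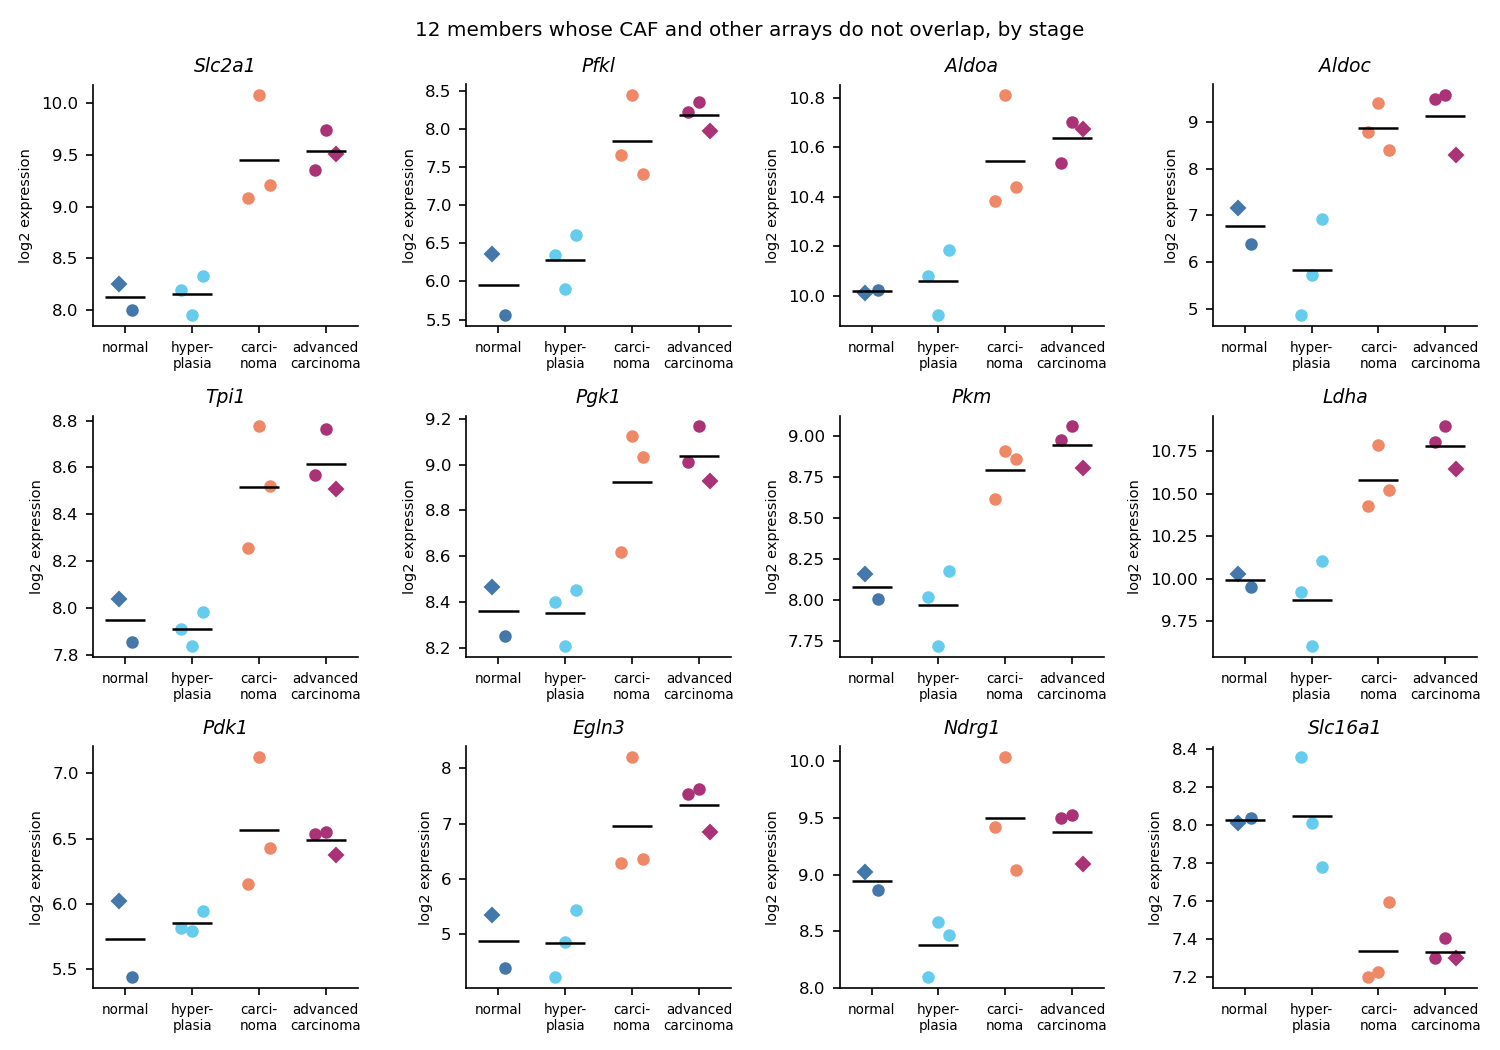
Log2 expression of the 12 genes whose CAF arrays and other arrays did not overlap, with 1 point per array, a bar at each stage mean and diamonds for the tied arrays D2 and D11. Slc16a1 alone lies lower in carcinoma and advanced carcinoma, and Aldoc and Egln3 show the widest spread among normal and hyperplasia arrays.

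Among the pay-off enzymes, 3 of 4 measured genes rose, Pkm, Pgk1 and Pgam1. Pkm encodes the muscle type pyruvate kinase, whose splice forms M1 and M2 these values do not separate. It read 8.16 and 8.00 in normal glands, 8.02, 7.72 and 8.18 in hyperplasia, 8.62, 8.91 and 8.86 in carcinoma and 8.98, 9.06 and 8.80 in advanced carcinoma. This was the rise with the smallest p of the list, by 0.86 (SE 0.10, 1.81-fold, adjusted p = 0.000282), and a second probe set of Pkm rose by 0.72. Pgk1, phosphoglycerate kinase, read 8.21 to 8.47 in normal glands and hyperplasia and 8.62 to 9.17 in CAFs, and rose by 0.63 (SE 0.10, adjusted p = 0.00128). Both other probe sets of Pgk1 held identical values in every array and rose by 0.54, with 5 of 6 CAF arrays above the rest. Signal from near-identical copies is therefore uncertain for these. Pgam1, phosphoglycerate mutase, read 9.32 to 9.65 in normal glands and hyperplasia, 9.39, 10.19 and 10.17 in carcinoma and 9.90, 9.86 and 9.83 in advanced carcinoma. Carcinoma D3 stood apart from the other CAF arrays, and the change of 0.40 (SE 0.13) passed narrowly (adjusted p = 0.0487, and 0.0690 with the term for D2 and D11). When all probe sets were fitted, this one did not pass (adjusted p = 0.0659). The other probe sets of Pgam1 rose by 0.37 and 0.43 (adjusted p = 0.0822 and 0.0465). Eno2, the neuronal enolase, changed by -0.28 (95% interval -0.88 to 0.32), and carcinoma D4 at 5.13 was its lowest array. For Gapdh, the CAF mean was higher on all 25 shared probe sets, by 0.07 to 0.52 with a median of 0.42, but signal from other genes or pseudogenes on them cannot be separated.

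At the fate of pyruvate, Ldha and Pdk1 rose and Ldhb did not pass. Ldha encodes the lactate dehydrogenase subunit known for making lactate, and its window held more matches than that of any other gene that rose. It read 10.03 and 9.95 in normal glands, 9.92, 9.60 and 10.11 in hyperplasia, 10.43, 10.78 and 10.52 in carcinoma and 10.80, 10.89 and 10.64 in advanced carcinoma. Each CAF array lay above each other array, with a rise of 0.75 (SE 0.11, 1.69-fold, adjusted p = 0.000789). Ldhb, the subunit common in heart, changed by 0.16 (95% interval -0.18 to 0.50). Pdk1, a kinase that shuts off pyruvate dehydrogenase, read 6.02 and 5.44 in normal glands, 5.82, 5.79 and 5.94 in hyperplasia, 6.16, 7.12 and 6.43 in carcinoma and 6.54, 6.55 and 6.38 in advanced carcinoma. It rose by 0.73 (SE 0.16, adjusted p = 0.00781), with carcinoma D4 the highest and D3 closest to the normal arrays.

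The HIF subunits themselves did not pass in CAFs. Hif1a lay between 9.11 and 9.52 in normal glands and hyperplasia and between 9.15 and 9.65 in CAFs, a difference of 0.02 (95% interval -0.22 to 0.26). Epas1, which encodes HIF-2 alpha, differed by 0.15 (-0.24 to 0.54) and Arnt, the shared beta subunit, by -0.21 (-0.41 to -0.01, adjusted p = 0.121). By contrast, the prolyl hydroxylases moved in opposite directions. Egln3 encodes PHD3, a HIF target that takes part in feedback on HIF, and it read 5.35 and 4.40 in normal glands, 4.23, 4.86 and 5.43 in hyperplasia, 6.29, 8.20 and 6.37 in carcinoma and 7.53, 7.63 and 6.85 in advanced carcinoma. The groups did not overlap, carcinoma D4 was the highest, and the rise was 2.29 (SE 0.37, adjusted p = 0.00167). Egln1 encodes PHD2, the main hydroxylase of HIF-1 alpha in normal oxygen. It read 7.74 and 7.74 in normal glands, 7.98, 7.93 and 7.73 in hyperplasia, 7.44, 7.29 and 7.79 in carcinoma and 7.61, 7.53 and 7.60 in advanced carcinoma, with D10 alone of the CAF arrays above the lowest of the others. Its change was -0.28 (SE 0.09, adjusted p = 0.0366, and 0.0548 with the term for D2 and D11).

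Of the 8 other hypoxia targets, 1, Ndrg1, passed in CAFs, a share close to the 12% of all genes that were higher. Ndrg1, a stress-responsive gene linked to differentiation, read 9.03 and 8.86 in normal glands, 8.09, 8.58 and 8.47 in hyperplasia, 9.42, 10.03 and 9.04 in carcinoma and 9.50, 9.53 and 9.09 in advanced carcinoma. The lowest CAF array exceeded normal D2 by little, and the change was 0.83 (SE 0.20, adjusted p = 0.0126). Bnip3 and Bnip3l, which mark mitochondria for removal, changed by 0.21 (95% interval -0.34 to 0.76) and -0.13 (-0.24 to -0.02, adjusted p = 0.0872). In Bnip3, carcinoma D4 and D10 at 8.20 and 8.27 stood above all other arrays and carcinoma D3 at 6.79 below all of them. A second probe set of Bnip3 changed by -0.01 (adjusted p = 0.982 when all probe sets were fitted). On it carcinoma D3 at 6.39 was not the lowest, since advanced carcinoma D8 read 6.19. Adm, the vasodilator adrenomedullin, differed by -0.59 (-1.43 to 0.25) with carcinoma D4 at 7.06 and every other array between 8.32 and 10.03. Ddit4, an inhibitor of mTORC1, differed by -0.17, the ankyrin repeat gene Ankrd37 by 0.06, the histone demethylase Kdm3a by -0.03 and the mitochondrial gene Higd1a by -0.01, and each had an interval that included 0. Either motif was found for 11 of 12 genes higher in CAFs with a window, for 15 of 16 that did not pass and for 2 of 2 that fell, so this measure left little room for a difference. Taken singly, ACGTG was present for 8 of the 12 genes that rose (66.7%) and 7 of the 16 that did not pass (43.8%), beside 18.5% of all genes. GCGTG was present for 6 of the 12 (50.0%) and 13 of the 16 (81.2%), beside 30.9% of all genes. These shares are a description of few genes and were not tested.

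**Figure D3:**
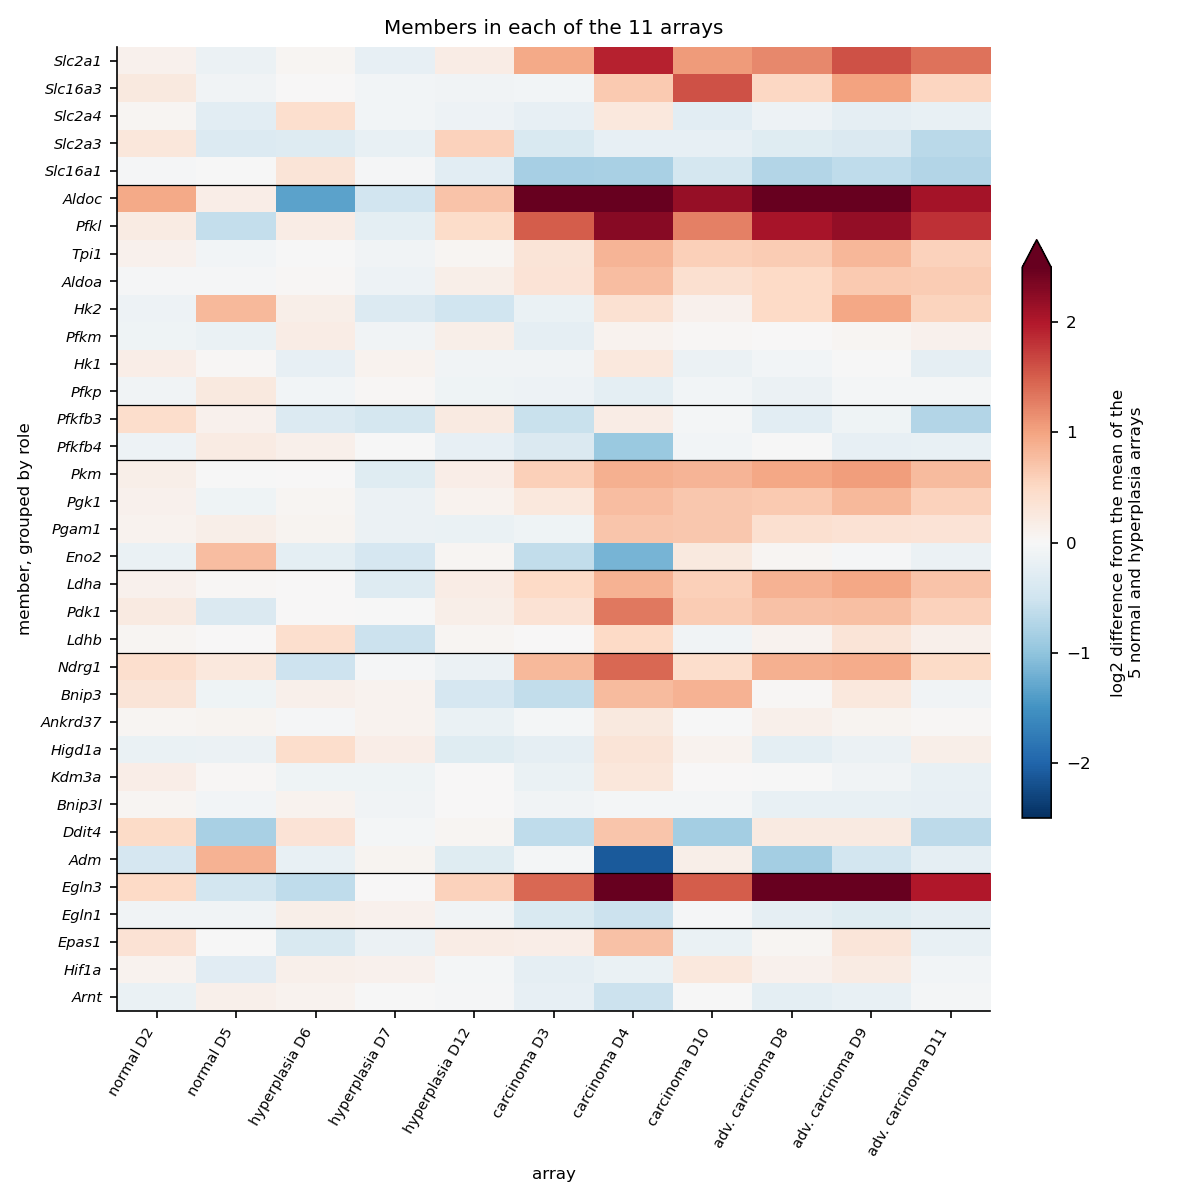
Log2 difference of each gene in each of the 11 arrays from its mean over the 5 normal and hyperplasia arrays, with lines between roles and colours that saturate at 2.5. The rise in CAFs runs through Slc2a1, Pfkl, Aldoc, Egln3 and the other genes that passed, whereas most rows of other hypoxia targets and HIF subunits stay pale and Adm is lowest in carcinoma D4.

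Isoforms of some steps thus took different values in CAFs. Beside one another, the changes were 1.35, -0.35 and -0.12 for Slc2a1, Slc2a3 and Slc2a4, and 0.70 and -0.70 for Slc16a3 and Slc16a1. They were 2.77 and 0.54 for Aldoc and Aldoa, which both rose, 0.75 and 0.16 for Ldha and Ldhb, and 2.29 and -0.28 for Egln3 and Egln1. Pfkfb3 and Pfkfb4 were alike at -0.25 and -0.29, and neither passed. Hk2 changed by 0.39, and Hk1 by -0.05 or 0.54 depending on the probe set. Tests of the differences between isoforms were not made, since each probe set has its own response to RNA.

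The question of when these genes changed was addressed by the stages. Between hyperplasia and carcinoma, 10 genes rose and 1 fell, where 4.89% and 4.37% of all genes did. The rises were 3.01 for Aldoc (adjusted p = 0.0141), 2.11 for Egln3 (0.0419), 1.55 for Pfkl (0.0187), 1.30 for Slc2a1 (0.0158) and 1.12 for Ndrg1 (0.0260). Those of Pkm, Ldha, Tpi1, Pgk1 and Aldoa were 0.83, 0.70, 0.61, 0.57 and 0.48, with adjusted p from 0.011 for Pkm to 0.0363 for Aldoa. Slc16a1 changed by -0.71 (adjusted p = 0.0236). With the term for D2 and D11, 8 of these 11 calls remained, and Egln3, Aldoa and Pgk1 had adjusted p of 0.0693, 0.0623 and 0.0621. The count depended on single arrays: it was 1 without hyperplasia D6 and 1 without hyperplasia D7.

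Between normal glands and advanced carcinoma, 8 genes rose and 1 fell, where 3.9% and 1.71% of all genes did. Egln3 rose by 2.46 (adjusted p = 0.0480), Pfkl by 2.23 (0.0112) and Slc2a1 by 1.41 (0.0236). Pkm, Ldha, Pgk1, Tpi1 and Aldoa rose by 0.87, 0.79, 0.68, 0.67 and 0.62, with adjusted p of 0.0161, 0.0255, 0.0405, 0.0343 and 0.0328. Slc16a1 changed by -0.69 (adjusted p = 0.0470), and Aldoc by 2.34, which did not pass (adjusted p = 0.0570). Both tied arrays belong to this comparison. With the term for them only Pfkl, Slc2a1 and Pkm remained, and without both arrays, without normal D5 or without advanced carcinoma D9 no gene passed. One gene passed without normal D2 or without advanced carcinoma D8 (1 in each), and 3 without D11.

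Between normal glands and carcinoma, 1 gene of the list rose and 0 fell, where 0.792% and 0.145% of all genes did. It was Pfkl, by 1.88 (adjusted p = 0.0457, and 0.118 with the term). Changes of the other genes in this comparison rest on the same carcinoma arrays as above, among them 2.08 for Aldoc (adjusted p = 0.133) and 0.84 for Pdk1 (adjusted p = 0.148).

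Hyperplasia and normal glands did not differ at the threshold in any gene of the list. Nor did any of all genes pass (0% higher and 0% lower by limma, 0 by contrasts of a one-way ANOVA after adjustment). At an unadjusted p under 0.05, 841 of all genes and 0 of the list did. The intervals leave room for differences: that of Slc2a1 was -0.58 to 0.64, that of Aldoc -2.29 to 0.44 and that of Ndrg1 -1.17 to 0.05. Carcinoma and advanced carcinoma likewise gave 0% higher and 0% lower over all genes by limma and 0 by ANOVA contrasts, with 1124 of all genes and 0 of the list at an unadjusted p under 0.05. Here the interval of Slc2a1 was -0.46 to 0.62 and that of Pkm -0.14 to 0.45. Hk2 came closest, at 0.57 (-0.04 to 1.17, adjusted p = 0.893).

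Across the 4 stages at once, 10 genes of the list passed the moderated F test of limma, beside 9.04% of all genes. They were Pkm (adjusted p = 0.00766), Pfkl (0.00889), Slc2a1 (0.0127), Ldha (0.0128), Aldoc (0.0155), Tpi1 (0.0186), Aldoa (0.0231), Slc16a1 (0.0231), Pgk1 (0.0263) and Egln3 (0.0321). Ndrg1 fell just outside (0.0526). With the term for D2 and D11, 8 of the 10 remained, and Pgk1 and Egln3 had adjusted p of 0.0503 and 0.0582. The order of stage means was the same in Slc2a1, Aldoa and Pfkl, lowest in normal glands, then hyperplasia, carcinoma and advanced carcinoma. Neither the first nor the last of these steps passed in any of these genes. In Pkm, Ldha, Aldoc, Tpi1, Pgk1 and Egln3, hyperplasia and not normal glands had the lowest mean. Without advanced carcinoma D8, 3 of the list passed, 4 without advanced carcinoma D9 or hyperplasia D7, and 6 without hyperplasia D6 or normal D5.

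Genes of related pathways were described in the same way, and their counts stand beside the 12% of all genes that were higher in CAFs and the 12.8% that were lower. Of 30 further hypoxia targets, 8 rose and 4 fell, with a median of 0.0023, and with the term for D2 and D11 the counts were 7 and 3 (Gys1 0.0502 and Stc1 0.0540). Those with the smallest p were the zinc finger gene Zfp395, which rose by 1.62 (adjusted p = 0.000137), the cyclin gene Ccng2, which changed by -0.32 (0.000532), and Ero1a, an oxidase of disulfide formation, which rose by 0.64 (0.00323). Among 11 regulators of HIF, 0 rose and 2 fell: Hif3a, an alpha subunit known to damp HIF activity, by -0.49 (adjusted p = 0.00456), and Vhl, which marks hydroxylated HIF for destruction, by -0.31 (0.00514). Hif1an, the asparagine hydroxylase, differed by 0.16 and did not pass (0.107).

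Of 19 other glycolytic isoforms, 4 rose and 5 fell. Pfkfb2 rose by 0.91 (adjusted p = 0.00131), whereas the glucose carriers Slc2a12 and Slc2a8 changed by -0.55 (0.00711) and -0.22 (0.00968). In the pyruvate dehydrogenase and pyruvate carrier list, 1 of 11 rose and 2 fell. Pdha1, a subunit of the complex, rose by 0.25 (adjusted p = 0.0103), Pdk4, a kinase that inhibits it, changed by -1.77 (0.0189) and Pdp1, a phosphatase that restores it, by -0.68 (0.0315). Pdk1 and Pdk4, which inhibit the same complex, thus moved in opposite directions.

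In the pentose phosphate pathway, which makes NADPH and ribose from glucose 6-phosphate, 4 of 7 rose and 1 fell, and with the term for D2 and D11 3 rose, since Pgd no longer passed (adjusted p = 0.0426, and 0.0628 with the term). Rpe rose by 0.48 (adjusted p = 0.000967), Taldo1 by 0.73 (0.00351), and Rpia changed by -0.53 (0.00454). Of 6 gluconeogenic genes, 2 rose: Pcx, pyruvate carboxylase, by 1.15 (adjusted p = 0.000822) and Fbp1 by 0.27 (0.0216). G6pc3 differed by 0.13 (0.278). Of 15 citric acid cycle genes 2 rose, Cs by 0.18 (adjusted p = 0.0339) and Idh3g by 0.29 (0.0365), a share close to that of all genes, and neither remained with the term for D2 and D11 (0.0543 and 0.0545). Sdha differed by 0.14 (0.108).

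**Figure D4:**
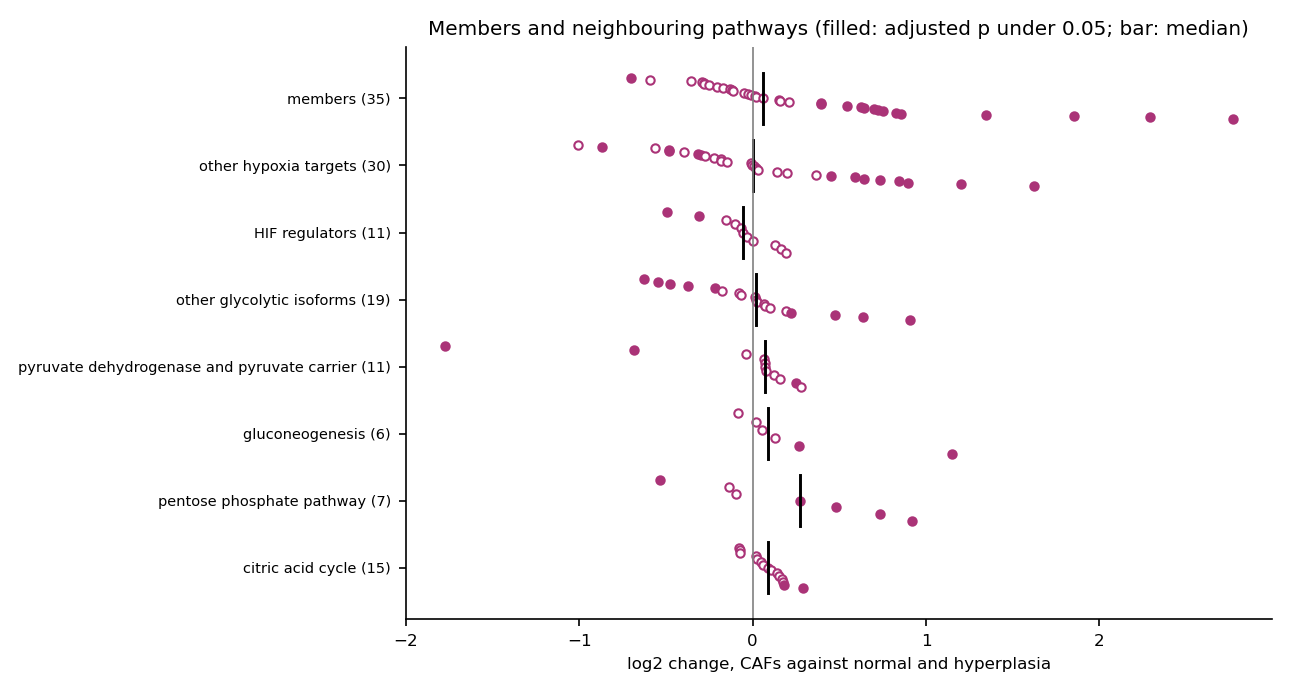
Log2 change in CAFs of every measured gene of the list and of each neighbouring pathway, with the number of genes in brackets, filled points for an adjusted p under 0.05 and a bar at the median, while the height of a point within its row only separates points. The listed genes reach 2.77, the farthest right of all rows, and the citric acid cycle genes all lie between -0.08 and 0.29.

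Levels of the genes that rose were set beside the markers of other cells. Among the CAF arrays, carcinoma D4 had the lowest fibroblast mean and the highest luminal mean (9.65). It was also the highest array for Slc2a1, Pfkl, Aldoa, Tpi1, Pgam1, Pdk1, Ndrg1 and Egln3. The macrophage mean was highest in advanced carcinoma D9 (8.18), D8 (8.04) and carcinoma D4 (7.77), and these 3 arrays in the same order led Aldoc, Pkm and Ldha. In normal glands and hyperplasia, Slc2a1 ranked the arrays D12, D2, D6, D5 and D7 from high to low. The luminal mean ranked them D2, D12, D5, D7 and D6. These orders differ mainly in the place of hyperplasia D6, where Slc2a1 was 8.19 and the luminal mean 6.12. In normal D2 they were 8.25 and 7.69. Glycolytic genes are known to be expressed in epithelium, macrophages and fibroblasts, and these arrays do not give the level in each. The part of each cell type in these results was not tested. Leaving out carcinoma D4 left 12 of the 15 calls in CAFs. The remaining CAF arrays still had higher luminal and macrophage means than any normal or hyperplasia array. This fit therefore cannot separate the part of each cell type.

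**Figure D5:**
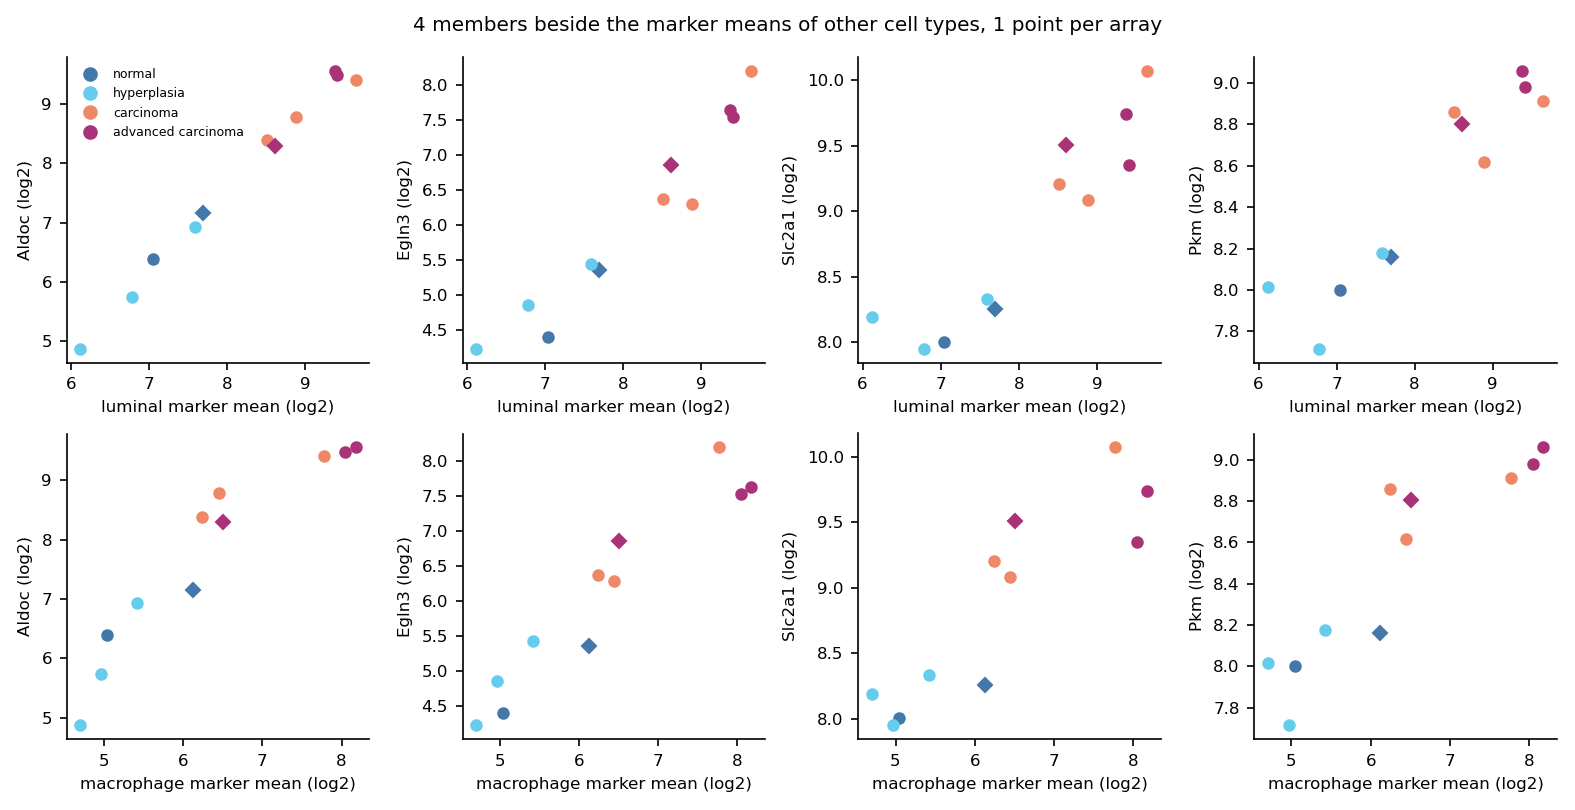
Log2 level of Aldoc, Egln3, Slc2a1 and Pkm in each array against the mean log2 level of luminal epithelial markers (top) and macrophage markers (bottom), with 1 point per array coloured by stage and diamonds for D2 and D11. Aldoc climbs with the luminal mean within normal and hyperplasia arrays as well as across groups. Slc2a1 stays between 7.95 and 8.33 in those 5 arrays, and carcinoma D4 is highest for both Slc2a1 and the luminal mean.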

How the data were processed

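RNA of sorted fibroblasts was hybridised to 11 Affymetrix Mouse Gene 1.0 ST arrays. The deposited values are log2 expression, which the authors made with the robust multi-average method (RMA) in Partek 6.5, per the labels and methods. Neither names the step that tied D2 and D11 to the remaining arrays, so RMA may not be the only processing of these values. RMA sets all arrays to a common distribution, so changes are relative to the other genes of an array; array medians were 5.28 to 5.39. Of 35399 probe sets, 21789 carry 1 symbol, 1621 several and 11989 none, and the brightest probe set of each symbol was kept, which left 19938 genes. No column belonged to a sample outside the series (0).

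Moderated tests of limma 3.58.1 (R 4.3.3) were taken from a model of all 4 stages (7 residual degrees of freedom), and CAFs were set against normal glands and hyperplasia in a model of 2 groups. P-values were adjusted by Benjamini-Hochberg over all genes, with a threshold of 0.05 and 95% intervals unadjusted. The script was tested on simulated data. The number of arrays limits the precision. Every gene of the list that passed in any comparison was named, as were all its isoform sets and the 3 genes with the smallest p of each related pathway.

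The list, the related pathways, the markers and the tests were chosen with earlier results of these data known. Alternatives were a term for the tied arrays D2 and D11, both left out, median-centred arrays, quantile normalization, dim genes removed (mean below 5.64), every probe set, contrasts of a one-way ANOVA, limma-trend with robust estimates, array weights, the compared stages only, the threshold of the methods (unadjusted p under 0.05 and fold over 1.5) and each array left out. The brightest probe set with a RefSeq mRNA accession was added after seeing the data. Promoter windows are from RefSeq on GRCm38.p6, and the array values name no genome build. Protein sequences were not used here.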

Additional observations from a re-analysis of the deposited data

Results flagged for a closer look

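In each of the 35 genes, the 6 CAF arrays and the 5 normal and hyperplasia arrays were checked for 1 array far from the rest of its group, 70 groups in all, of which 2 stood out. Chance alone flags about 1 in 20 such groups. For Slc2a4, the insulin-responsive glucose carrier, carcinoma D4 read 5.09 against 4.57 to 4.70 in the other CAF arrays, a gap of 0.751 of the whole range of the group. For Pfkm, the muscle phosphofructokinase, carcinoma D3 read 6.87 against 7.11 to 7.21, a gap of 0.700 of the range. Neither gene passed the test in CAFs.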

How the results depend on the processing

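Of the 15 genes that passed in CAFs, 12 did so under each of the 21 alternatives fitted, with adjusted p of at most 0.0307. The exceptions were Pgam1, Slc16a3 and Egln1. The threshold of the methods is not among these 21, and of the 12 genes Aldoa, at 1.46-fold, did not reach its fold of 1.5. No gene that passed changed direction. With each array left out in turn, the count ran from 12 to 14 in CAFs, 1 to 13 between hyperplasia and carcinoma, 0 to 11 between normal glands and advanced carcinoma, 0 to 3 between normal glands and carcinoma, and 3 to 12 over the 4 stages. It stayed at 0 for hyperplasia against normal glands and advanced carcinoma against carcinoma.

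Between hyperplasia and carcinoma (11 genes), the count was 5 without both tied arrays, 3 with ANOVA contrasts and 0 with the compared stages only. Between normal glands and advanced carcinoma (9 genes), it was 3 with the term for both tied arrays, 0 without both, 5 with every probe set and 0 with ANOVA contrasts. For normal glands against carcinoma (1 gene), it was 0 with the term, without both arrays, with every probe set, with ANOVA contrasts and with the compared stages only. It was 3 with median-centred arrays, 2 with quantile normalization, 2 with dim genes removed, 4 with array weights and 8 at the threshold of the methods. Over the 4 stages (10 genes), it was 3 without both arrays and 2 with ANOVA contrasts. Counts over all 19938 genes moved too. With ANOVA contrasts, 858 passed between hyperplasia and carcinoma and 247 between normal glands and advanced carcinoma. The count was 0 between normal glands and carcinoma and 493 over the 4 stages. With the term, 1 of all genes was higher and 0 lower between normal glands and carcinoma. At an unadjusted p under 0.05 without a fold, 3595 of all genes and 12 of the list passed there. The fits without arrays hold fewer samples and the ANOVA does not share the spread across genes, and the cause was not tested further. Array numbers are not shared between groups. No paired analysis was possible because no number occurs in more than 1 group.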
